A study of Mus musculus with 27 samples.

Results

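The genes described here encode the non-collagen parts of the basement membrane: 4 laminin alpha chains (Lama1, Lama2, Lama4, Lama5), 2 laminin beta chains (Lamb1, Lamb2), the laminin gamma 1 chain (Lamc1), the nidogens Nid1 and Nid2, and perlecan (Hspg2). They were taken by name, under a rule that sets no threshold on a measured value, and all 10 were found among the 55487 genes of the count table. Their RNA was measured by Geo-seq, in which pieces of a frozen section are cut out under the microscope and sequenced, in mouse heads at embryonic day 14. The pieces came from the dorsal optic stalk, the ventral optic stalk, and the region of the stalk holding the axons of retinal ganglion cells (the axon region), each from 4 control and 5 mutant embryos, 27 libraries in all. The mutants (Smarcc1-DCT-cKO) carried Baf155 loxP/loxP alleles of Smarcc1, which encodes a core component of SWI/SNF chromatin remodellers, with the Dct-Cre transgene and the Z/EG reporter. The controls were littermates that lacked Dct-Cre, and the alleles of each single embryo were not used here. Cre was under the Dct promoter, which the study used to remove floxed genes from the pigmented and the optic stalk lineages of the eye, and the pieces also held cells of other lineages, such as vessels and mesenchyme.

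Laminins are trimers of an alpha, a beta and a gamma chain that polymerise into the sheet on which epithelia, vessels and glial endfeet rest. Nidogens link laminin to collagen IV, and perlecan, a proteoglycan with heparan sulphate chains, binds growth factors in the same sheet. Cells hold on to it through integrins and dystroglycan, and in the optic stalk and retina the basement membrane is the surface along which ganglion cell axons and astrocytes advance. Many of these genes are also strongly expressed by blood vessels, meninges and mesenchyme, which lie against the stalk.

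The total count per library lay between 10.9 M and 33.98 M reads, so that 3 reads, taken as the limit of detection, corresponded to 0.0883 to 0.275 CPM (the read count of a gene scaled to a library total of 1 M). Such limits cover counting error only. Smarcc1 itself ranged from 75.9 to 289 CPM in dorsal controls and from 2.26 to 107 CPM in dorsal mutants. It ranged from 75.7 to 198 CPM in ventral controls and from 14.7 to 64.4 CPM in ventral mutants, and from 50.1 to 242 CPM in axon region controls and from 1.86 to 44.9 CPM in axon region mutants. The groups thus overlapped in the dorsal stalk alone. The axon region libraries detected 9225 to 14118 genes, against 10881 to 16810 in the dorsal and ventral stalk. Of 10 optic stalk and astrocyte progenitor markers, all were above the limit of detection in every dorsal and ventral group, with sums of 2707 to 3607 CPM in dorsal controls, 965 to 1815 CPM in dorsal mutants and 2664 to 5456 CPM in the ventral stalk. The 10 ganglion cell axon markers summed to 1129 to 2784 CPM in the axon region and to 25.0 to 1462 CPM elsewhere, with Pou4f2 at 0 in 5 of the 6 groups. Pigment epithelium markers summed to 39.5 to 5207 CPM in dorsal controls and to 3522 to 13319 CPM in dorsal mutants. The members were measured unevenly: 55 of their 270 values (20.4%) were 0. Dorsal control libraries had the fewest (2 of 40 values, 5%), the other groups had between 20% and 28%, and dorsal mutant replicate 4 alone lacked reads for 6 of the 10 genes. A 0 here says only that no read was counted in that piece.

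The results turn mainly on Nid1 and Lamb1. Lamb1 was higher in the dorsal than in the ventral piece of all 9 embryos, and Nid1 had no overlap between ventral and axon region mutants. Nid1 (ENSMUSG00000005397.8) lies on the forward strand of chromosome 13 at 13437551 to 13512269, and Lamb1 (ENSMUSG00000002900.17) on the forward strand of chromosome 12 at 31265234 to 31329644 (mm10, GENCODE M21). To place both genes in the genome, 190 bases upstream of each are shown, from 250 to 61 bases before the RefSeq start (GRCm38.p6, forward strand, chr13:13437352-13437541 for Nid1 and chr12:31265043-31265232 for Lamb1), with any match on either strand to the CCAAT box (CCAAT), the GC box (GGGCGG), the TATA box (TATAAA) or the canonical E-box (CACGTG) in capitals.
Nid1: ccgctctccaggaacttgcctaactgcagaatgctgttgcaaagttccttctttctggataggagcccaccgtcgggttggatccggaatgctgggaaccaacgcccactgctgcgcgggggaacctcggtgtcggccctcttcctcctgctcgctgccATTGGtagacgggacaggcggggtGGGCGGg
Lamb1: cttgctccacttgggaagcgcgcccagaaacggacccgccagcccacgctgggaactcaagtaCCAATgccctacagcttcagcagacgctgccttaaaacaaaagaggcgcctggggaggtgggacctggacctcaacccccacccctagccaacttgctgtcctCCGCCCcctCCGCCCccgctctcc
Each window held 1 CCAAT box match, which 26.7% of 32851 promoter windows of this length held. The GC box, present in 22.8% of windows, matched 1 time in Nid1 and 2 times in Lamb1, and neither gene had the TATA box (8.73% of windows) or the E-box (4.03%) letters there. The motifs shared no base with each other in either window. Both windows were rich in G and C, at 62.6% for Nid1 and 64.2% for Lamb1 against a median of 51.6%. These matches describe the letters only, and nothing measured here reports binding at them.

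The other alpha chain genes lie at 67697259 to 67822647 on chromosome 17 (Lama1), 26980036 to 27619758 and 38965515 to 39110188 on chromosome 10 (Lama2 and Lama4), and 180176373 to 180225859 on chromosome 2 (Lama5). Lamb2 lies at 108479736 to 108490530 on chromosome 9, Lamc1 at 153218922 to 153332786 on chromosome 1, Nid2 at 19751265 to 19811787 on chromosome 14 and Hspg2 at 137468769 to 137570630 on chromosome 4, in the same build. Lama2 shares 631 exonic bases with Gm48084, Nid1 143 with Gm48682 and Nid2 437 with Rtraf, each on the opposite strand. The strand setting of the counting was not given in the sources used here, so reads in those bases could belong to either gene.

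The first question was whether loss of Smarcc1 went with a different level of these genes within a region. No member met the criterion for a change (edgeR quasi-likelihood test, Benjamini-Hochberg adjusted p under 0.05 over all genes and a log2 fold change beyond 0.58) in any of the 3 regions. In the dorsal stalk 9 of the 10 log2 fold changes, mutant over control, lay below 0, with a median of -1.13 against -0.04 over all 16145 genes tested. The smallest of them was Lama1 at -0.10, whose mean CPM was 15.3 in controls and 17.9 in mutants. In the ventral stalk 8 of 10 lay below 0 (median -0.54, all genes -0.08), and in the axon region 7 of 10 (median -0.96, all genes -0.29). Over 16 alternatives (other tools and scalings, no batch term, batch B alone, leaving out each library) these counts ranged from 7 to 9 in the dorsal stalk, 6 to 10 in the ventral stalk and 6 to 7 in the axon region. Of the 30 single fold changes 13 took the opposite sign under at least 1 alternative, among them dorsal Lama1, Nid1 and Nid2, while dorsal Lama4, Lama5, Lamb1 and Lamc1 and axon region Lama1 did not. The dorsal median ran from -4.84 without mutant replicate 5 to -0.56 without mutant replicate 4. Libraries of the same embryos underlie all 3 comparisons, so they are not independent.

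Those counts stood beside low backgrounds. In the dorsal stalk 0 of 10 members were called and 0 reached p under 0.05 before adjustment, where 0.0124% and 5.35% of all genes did, and the control and mutant values overlapped for every member, where 2.92% of genes had separate groups. In the ventral stalk the members again gave 0 in each, against 0.0% called, 3.19% under the unadjusted threshold and 1.23% with separate groups. In the axon region 0 members were called (0.0% of genes), 0 had separate groups (1.28%), and 1, Lama2, had an unadjusted p under 0.05 (3.55%). A different tool, DESeq2, called Lama1 and Lama4 in the axon region, where it called 1233 of 11880 genes, and no member elsewhere. Limma voom called no member in the 3 comparisons. The means of Lama4 in the axon region were 23.2 CPM in controls and 23.1 CPM in mutants, and its edgeR log2 fold change was -9.81 ± 7.33 (SE) with batch as a covariate and 0.03 without.

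**Figure D1:**
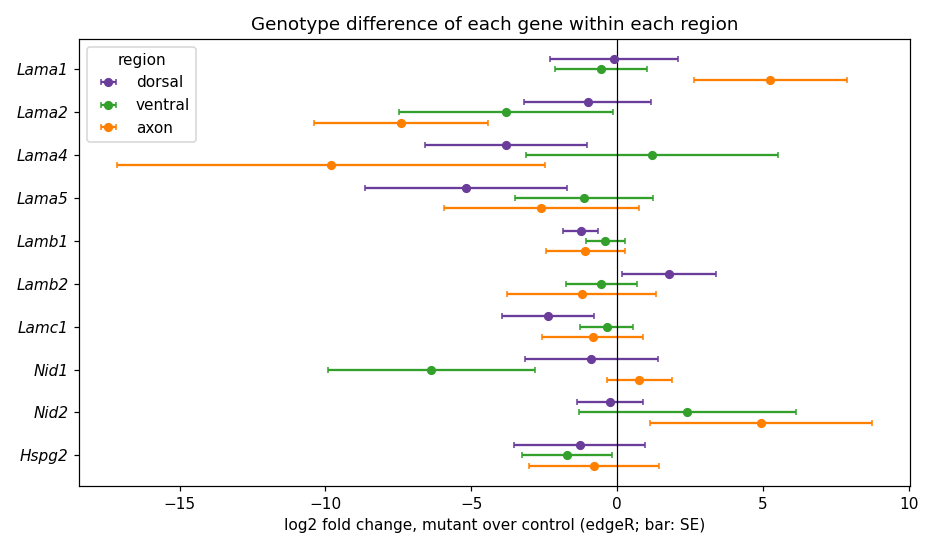
Log2 fold change of mutant over control (x axis) for each gene (y axis) in the 3 regions, from the edgeR fit with batch as a covariate; bars are standard errors, 4 controls and 5 mutants per region. Most dorsal points lie left of 0, but the bars are wide, and no gene was called in any region.

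Among the alpha chains, which decide the tissue type of a laminin, Lama4 (the chain typical of vessels) was at 12.5, 76.4, 168 and 42.5 CPM in the 4 dorsal controls and at 2.94, 0, 23.4, 0 and 5.85 CPM in the 5 dorsal mutants. Lama5, the broad epithelial chain, was at 26.99, 37.4, 7.38 and 35.1 CPM in dorsal controls and at 0, 17.7, 0, 0 and 0.598 CPM in dorsal mutants. For either gene 1 mutant library lay within the control values and the other 4 lay below all of them. The edgeR log2 fold changes were -3.80 ± 2.78 (SE) for Lama4 and -5.19 ± 3.46 for Lama5, with edgeR adjusted p of 1.00 and 0.959. Exact permutation tests of log2(CPM + 1), two-sided, gave p = 0.0317 for Lama4 and 0.0238 for Lama5, adjusted over all genes 0.622 and 0.582. Permuting within batches, where 0.025 is the smallest p possible, they gave 0.05 and 0.025. Periocular mesenchyme and meninges markers, 14 genes summed, ranged from 1415 to 10759 CPM in these dorsal controls and from 82.3 to 420 CPM in the dorsal mutants. Optic stalk and astrocyte progenitor markers were also lower in the dorsal mutants, with no overlap (sums given above). Endothelial markers overlapped, at 293 to 506 CPM in dorsal controls and 64.3 to 646 CPM in dorsal mutants. Mural markers did too, at 117 to 266 and 42.7 to 275 CPM. Retinal progenitor markers were higher in the dorsal mutants, at 165 to 391 and 425 to 1069 CPM, with no overlap. Pigment epithelium markers also reached higher in the mutants, with overlap (sums given above). The part of any of these lists in the difference was not tested, and in pieces of tissue fewer cells of a type cannot be told apart from less RNA per cell.

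Lama1, a chain of early embryonic and neuroepithelial basement membranes, was ordered the other way in the axon region. It was at 0, 12.4, 3.46 and 0.321 CPM in the controls and at 27.4, 93.2, 2.52, 112 and 46.5 CPM in the mutants, so 4 of 5 mutant libraries were above every control library. The edgeR log2 fold change was 5.26 ± 2.64 (SE, adjusted p = 0.880), and the exact permutation p was 0.0397 (0.939 over all genes, 0.05 within batches). In the ventral stalk the 5 mutants were close to each other at 52.2, 57.7, 29.1, 22.5 and 24.2 CPM, whereas the controls were split between 107 and 76.4 CPM in 2 libraries and 0 and 0.0571 CPM in the other two. For comparisons within embryos, here and below, libraries of 1 number and genotype were paired, although the labels do not name the embryo. Within embryos Lama1 was lower in the dorsal than in the ventral piece in 8 of 9 (mean log2 difference -1.13 ± 1.61 SD, exact sign-flip p = 0.0469, adjusted over all genes 0.611).

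Lama2, the chain of muscle and vascular basement membranes, had few or no reads outside the dorsal stalk in all but 2 control libraries. It was at 16.8, 74.7, 50.2 and 4.37 CPM in dorsal controls and at 32.0, 0, 3.18, 0 and 34.7 CPM in dorsal mutants. In the ventral mutants the only library with reads was at 0.673 CPM, and in the axon region mutants the only one was at 0.171 CPM, or 4 reads. A single control library was high in the ventral stalk (28.0 CPM) and in the axon region (46.6 CPM), with the remaining 3 controls at or below 0.534 and 0.458 CPM. The axon region difference, -7.42 ± 2.99 (SE) on the log2 scale with an unadjusted p of 0.0273 and an adjusted p of 0.880 by edgeR, set those 5 mutant libraries against controls of which 1 alone exceeded 0.458 CPM. Within embryos the dorsal piece was above the ventral one in 7 of 9 and tied at 0 in the other two (exact sign-flip p = 0.0156, adjusted over all genes 0.466).

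Set side by side per kilobase of exon, the mix of alpha chains differed among the groups. Of the summed mean alpha chain level (CPM per kb), Lama1 made up 12.8% in dorsal controls and 51.9% in dorsal mutants, 61.5% and 82.6% in the ventral stalk, and 9.38% and 74.5% in the axon region. Lama4 made up 50.2% in dorsal controls and 43.1% in axon region controls, against 3.23% in ventral controls. The axon region control share fell to 17.6% without replicate 4, with Lama5 then at 45.7%, and single axon region controls had Lama5 as the highest alpha chain in 2 of 4, Lama2 in 1 and Lama4 in 1. Without ventral control replicate 1 the Lama1 share there was 40.7% and that of Lama5 45.2%. Lama1 was the highest alpha chain in 5 of 5 ventral mutants and 5 of 5 axon region mutants, and in 2 of 4 ventral and 0 of 4 axon region controls. With the length of the longest transcript in place of all exons, the axon region mutants gave 3 of 5. Single dorsal libraries differed less, with Lama1 the highest in 2 of 4 controls and 3 of 5 mutants. That mutant count includes replicate 4, where every alpha chain was at 0. The dorsal mean of Lama1 itself was 1.58 CPM per kb in controls and 1.85 in mutants, and that of Lama4 was 6.21 and 0.533. The summed level itself was 12.4 CPM per kb in dorsal controls and 3.56 in dorsal mutants, 7.70 and 4.64 in the ventral stalk, and 4.47 and 7.82 in the axon region. These shares are ratios of group means and carry no test.

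**Figure D2:**
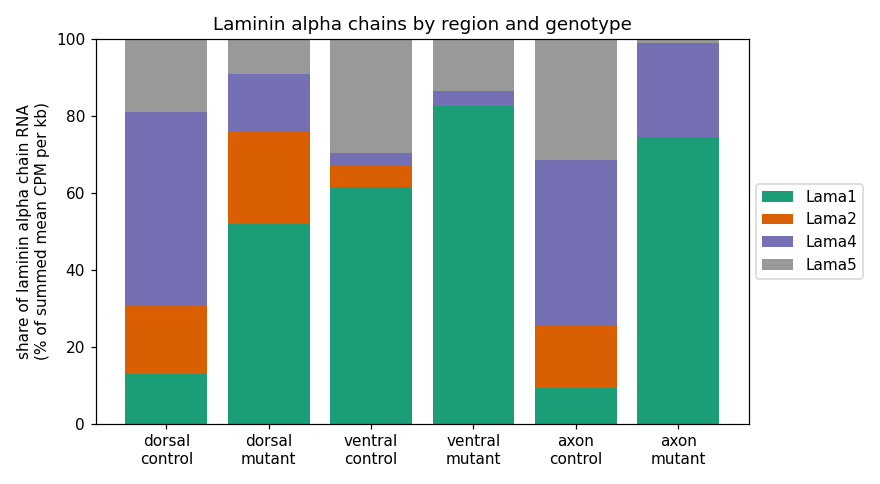
Share of each laminin alpha chain (y axis, percent of the summed group mean in CPM per kb of exon) in the 6 groups (x axis; 4 controls or 5 mutants each). Lama1 takes the largest share in the ventral groups and in the mutants of every region, and Lama4 in the controls of the dorsal stalk and axon region; in ventral controls without replicate 1 and in axon region controls without replicate 4, Lama5 takes the largest share.

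Lamb1, the beta chain of most embryonic laminins, was the member with the steadiest regional order. In dorsal controls it was at 216, 181, 428 and 331 CPM and in ventral controls at 128, 97.4, 16.9 and 46.5 CPM, with no overlap. In dorsal mutants it was at 290.2, 45.7, 222.7, 92.5 and 83.4 CPM and in ventral mutants at 64.9, 20.8, 69.6, 65.1 and 61.2 CPM, where 1 dorsal library fell among the ventral ones. In every one of 9 embryos the dorsal piece was above the ventral piece, by a mean of 1.65 ± 1.35 (SD) in log2(CPM + 1). The exact sign-flip p was 0.00391, the smallest that 9 embryos can give, and 0.387 after adjustment over all genes. The same order in every embryo was seen for 1.01% of all genes between dorsal and ventral pieces, and for 1 of the 10 members.

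The model fits gave Lamb1 a dorsal over ventral log2 fold change of 2.01 ± 0.58 (SE) in controls and 1.39 ± 0.51 in mutants, with edgeR adjusted p of 0.615 and 0.381 and unadjusted p of 0.0045 and 0.0169. Over both genotypes, with the embryo as a replicate block, it was 1.64 ± 0.78 (edgeR adjusted p = 0.832). By group means the order was dorsal controls (289 ± 113 CPM, SD), dorsal mutants (147 ± 104), axon region controls (124 ± 87.2), axon region mutants (75.0 ± 98.7), ventral controls (72.1 ± 49.8) and ventral mutants (56.3 ± 20.1), and each neighbouring pair overlapped. Between the genotypes the dorsal difference was -1.25 ± 0.60 (SE, edgeR adjusted p = 0.918). Mural markers, which label the cells around vessels, summed to 117 to 266 CPM in dorsal controls and 15.5 to 99.5 CPM in ventral controls. In controls some other lists were higher dorsally too, and some were lower. Endothelial markers summed to 293 to 506 CPM in dorsal and 44.6 to 208 CPM in ventral controls. Mesenchyme and meninges markers summed to 1415 to 10759 and 187 to 1504 CPM. Retinal progenitor markers were lower dorsally, at 165 to 391 and 503 to 697 CPM. Optic stalk progenitor markers were too, at 2707 to 3607 and 3562 to 5456 CPM, with overlap. In mutants the mesenchyme sum was 82.3 to 420 CPM dorsally and 204 to 446 CPM ventrally. The mural sum there was 42.7 to 275 and 20.2 to 82.5 CPM, and the endothelial sum 64.3 to 646 and 16.9 to 115 CPM. The part of these lists was not tested.

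Lamb2, the beta chain of mature and synaptic basement membranes, ran differently from Lamb1. In dorsal controls it was at 0.333, 24.8, 47.1 and 31.0 CPM and in dorsal mutants at 64.9, 50.7, 48.2, 27.7 and 62.9 CPM. Of the 5 mutant libraries 4 lay above all controls (log2 fold change 1.80 ± 1.61, SE, edgeR adjusted p = 1.00, exact permutation p = 0.0556, 0.654 over all genes). In the axon region it was at 23.2, 32.7, 21.1 and 13.1 CPM in controls and at 17.5, 0, 30.5, 14.9 and 0.0444 CPM in mutants. These values overlapped (log2 fold change -1.22 ± 2.57, SE, edgeR adjusted p = 0.998). In 8 of 9 embryos the ventral piece was above the axon piece, by 2.11 ± 1.77 (SD) in log2(CPM + 1), with an exact sign-flip p of 0.00781 (0.194 over all genes). Lamb1 made up 87.3% of the summed beta chain level per kb in dorsal controls and 63.9% in dorsal mutants, 37.2% and 39.5% in ventral controls and mutants, and 77.2% and 78.5% in the axon region. With the length of the longest transcript in place of all exons, these shares were 91.6% and 73.8%, 48.5% and 50.9%, and 84.3% and 85.3%.

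Lamc1, the gamma chain shared by nearly all laminins, was at 55.0, 109, 237 and 174 CPM in dorsal controls and at 72.8, 13.2, 5.80, 0 and 39.3 CPM in dorsal mutants. Only the first mutant library reached the control values. In this comparison the mesenchyme, optic stalk progenitor and retinal progenitor markers also differed, as given for Lama4 and Lama5. The log2 fold change was -2.36 ± 1.57 (SE, edgeR adjusted p = 0.955), and the exact permutation test gave 0.0397 (0.622 over all genes, 0.05 within batches). In the ventral stalk the range was 29.1 to 140 CPM in controls and 0.942 to 185 CPM in mutants, and in the axon region 4.29 to 65.2 CPM and 2.81 to 43.8 CPM, overlapping almost throughout. The dorsal piece was above the axon piece of the same embryo in 4 of 4 controls and 2 of 5 mutants.

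Nid1, the more abundant nidogen per kb in 5 of the 6 groups, varied widely between libraries of one group and between regions. Dorsal controls were at 4.08, 275, 541 and 42.2 CPM and dorsal mutants at 32.6, 0, 128, 99.3 and 22.6 CPM. Ventral controls were at 8.64, 0, 83.4 and 27.9 CPM, and ventral mutants at 3.50, 0.0615, 0.0294, 0 and 0.367 CPM. Axon region controls were at 68.3, 2.56, 53.1 and 20.6 CPM, and axon region mutants at 64.0, 156, 124, 47.5 and 42.9 CPM. The mutants were thus nearly without Nid1 reads in the ventral stalk (mean 0.792 ± 1.52 CPM, SD, n = 5) and had it in all 5 axon region pieces (87.1 ± 50.6 CPM), with no overlap. In the controls ventral and axon region values overlapped, at means of 30.0 ± 37.5 and 36.1 ± 29.9 CPM (n = 4).

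The ventral over axon region log2 fold change of Nid1 was -6.94 ± 1.78 (SE) in mutants (edgeR unadjusted p = 0.00144, adjusted p = 0.166) and -0.47 ± 1.68 in controls (adjusted p = 1.00). The difference between the genotypes in this fold change was -6.72 ± 2.43 (edgeR unadjusted p = 0.00996, adjusted p = 0.312), which did not meet the criterion. The exact permutation test in mutants gave 0.00794, the smallest possible, and 0.231 over all genes. With the embryo as a replicate block the mutant fold change was -9.56 (edgeR adjusted p = 0.439). DESeq2 (adjusted p = 1.11e-05), limma voom (0.00186) and edgeR's newer quasi-likelihood method (0.0151) each called it, as did the original method without ventral replicate 1 (0.0418), the ventral mutant library with the highest Nid1 level. Over 16 alternatives the adjusted p ranged from 1.11e-05 to 0.439 and the log2 fold change from -9.71 to -6.60.

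Dorsal pieces were above ventral pieces for Nid1 in 7 of 9 embryos (3.44 ± 3.27, SD, in log2(CPM + 1), exact sign-flip p = 0.0234, 0.535 over all genes). The fitted dorsal over ventral fold change was 6.13 ± 2.00 (SE) in mutants (edgeR adjusted p = 0.381) and 2.80 ± 1.55 in controls (0.692). The axon piece was above the ventral piece in 5 of 5 mutants and 2 of 4 controls. Ordered by mean, dorsal controls (215 ± 248 CPM) stood first, followed by axon region mutants, dorsal mutants (56.4 ± 54.3), axon region controls, ventral controls and ventral mutants, and every neighbouring pair overlapped. The dorsal control mean rested on replicate 3, at 541 CPM, and was 107 ± 147 CPM (n = 3) without it. That library also held the fewest genes of the dorsal and ventral libraries.

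**Figure D3:**
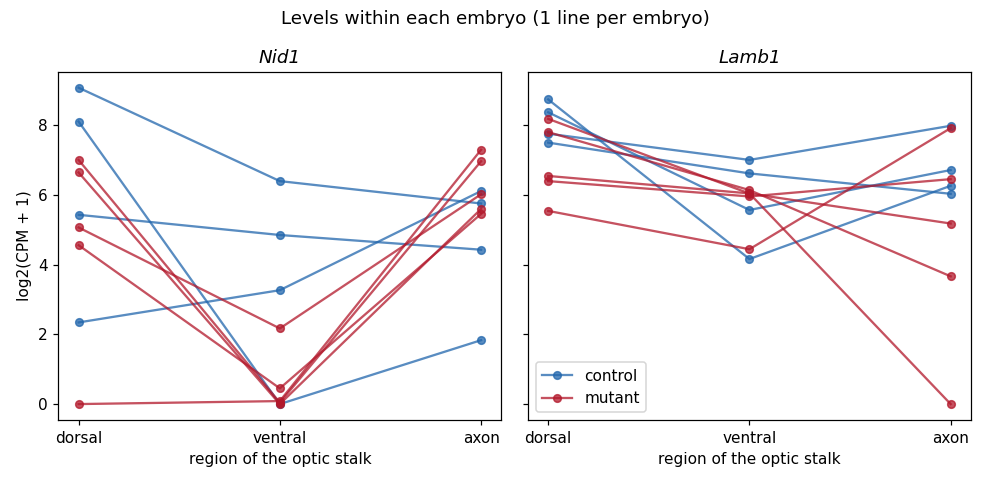
Level of Nid1 (left) and Lamb1 (right) as log2(CPM + 1) on the y axis in the 3 regions on the x axis, 1 line per embryo, 4 controls in blue and 5 mutants in red. All 5 red Nid1 lines go up from the ventral stalk to the axon region and 4 of them go down from dorsal to ventral, and every Lamb1 line goes down from dorsal to ventral.

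Some marker lists differed between ventral and axon region mutants in the direction of Nid1, others did not, and both are given as measured. In ventral mutants the 14 mesenchyme and meninges markers summed to 204 to 446 CPM, with Twist1, Foxc1 and Tbx18 at 0 in every library, and the 10 endothelial markers to 16.9 to 115 CPM, with Cdh5, Tek and Emcn at 0. In axon region mutants the mesenchyme sum was 829.3 to 2539 CPM, not overlapping the ventral range, with all 14 markers above the detection limit in at least 1 library, and the endothelial sum was 37.7 to 484 CPM. The 9 red cell markers summed to 2.27 to 1227 CPM in ventral mutants and to 609 to 33121 CPM in axon region mutants. Ganglion cell axon markers summed to 151 to 302 CPM in ventral mutants and to 1129 to 2784 CPM in axon region mutants. Retinal progenitor markers ran the other way without overlap, at 451 to 900 and 263 to 349 CPM. Pigment epithelium markers ran that way too, at 723 to 4246 and 375 to 1283 CPM, with overlap. Mural markers had a median sum of 35.6 CPM in ventral mutants and 23.8 CPM in axon region mutants, and their ranges overlapped. Dorsal mutants had a mesenchyme sum of 82.3 to 420 CPM, reaching below the ventral mutants, with a Nid1 mean of 56.4 CPM. The part of these lists in the Nid1 difference was not tested.

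Nid2, the other nidogen, had reads in all 9 dorsal libraries and was uneven elsewhere. Dorsal controls were at 103, 25.5, 13.3 and 10.7 CPM and dorsal mutants at 5.597, 14.8, 80.0, 13.7 and 40.6 CPM. In ventral pieces 2 of 4 controls and 3 of 5 mutants were at 0. In axon pieces 3 of 4 controls were at 0 and 1 at 14.3 CPM, and the mutants were at 23.6, 0, 0.0680, 75.8 and 41.8 CPM, a mean of 28.3 ± 31.9 CPM (SD) against 30.9 ± 30.4 CPM in dorsal mutants. Dorsal was above ventral in 7 of 9 embryos (3.03 ± 2.88, SD, exact sign-flip p = 0.0234, 0.535 over all genes). Nid1 made up 80.8% of the summed nidogen level per kb in dorsal controls and 57.6% in dorsal mutants, 84.8% in ventral controls and 5.41% in ventral mutants, and 88.2% and 69.7% in the axon region. The ventral mutant share was set by 2 libraries with Nid2 at 19.9 and 31.8 CPM.

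Hspg2, encoding perlecan, was at 31.2, 41.1, 6.29 and 26.0 CPM in ventral controls and at 0.284, 3.20, 8.36, 27.2 and 1.29 CPM in ventral mutants. Of the 5 mutants 3 lay below all controls (log2 fold change -1.71 ± 1.55, SE, edgeR adjusted p = 0.999, exact permutation p = 0.0714). Dorsal values ran from 0 to 30.8 CPM in controls and from 0 to 22.1 CPM in mutants, and axon region values from 0.239 to 62.7 CPM and from 0.0426 to 33.1 CPM. In all 4 controls the ventral piece was above the dorsal piece, and in 2 of 5 mutants. Per kb, perlecan was between 0.563 and 1.83 CPM in the 6 groups, below the summed alpha chains in each.

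**Figure D4:**
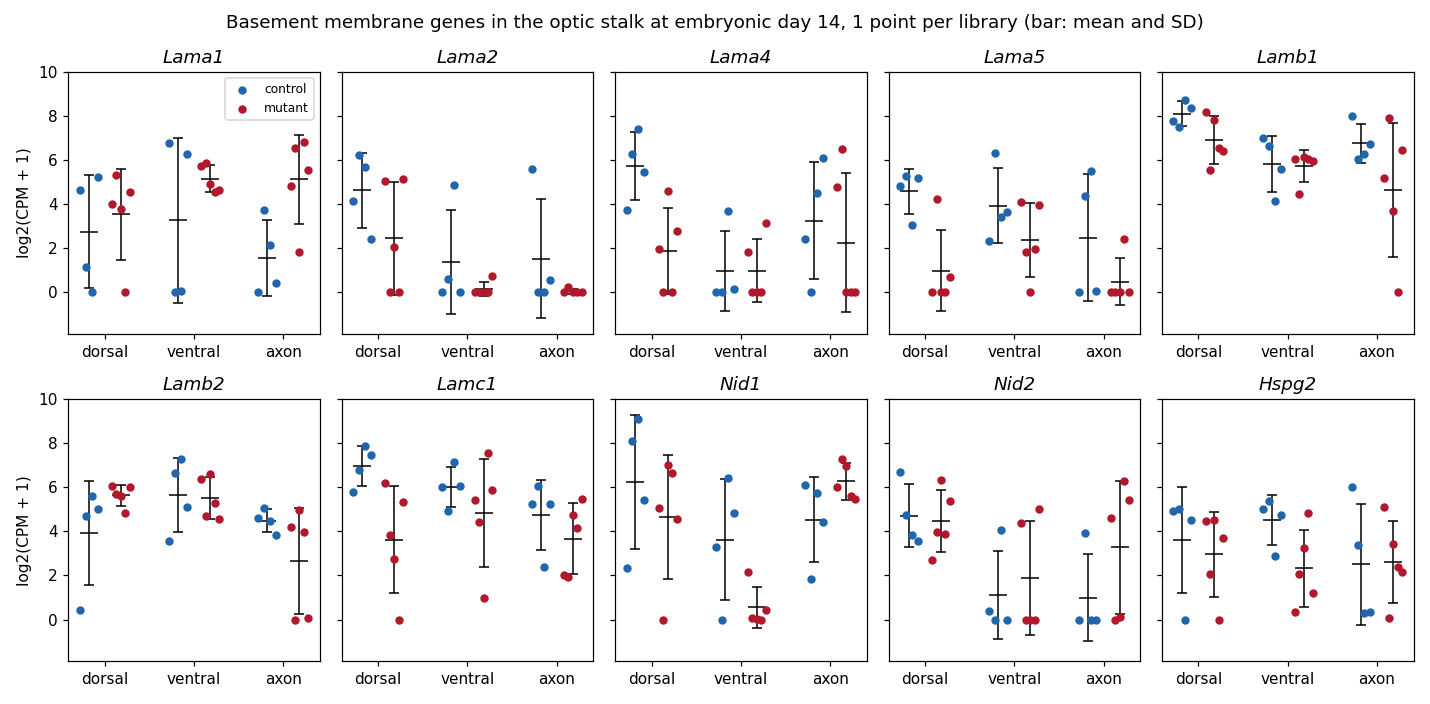
Level of each of the 10 genes as log2(CPM + 1) (y axis) in the dorsal stalk, ventral stalk and axon region (x axis), controls in blue (n = 4) and mutants in red (n = 5), 1 point per library with the mean and SD in black. Lamb1 is high in nearly every library, Lama2 is near 0 in ventral and axon region mutants, and Nid1 is near 0 in ventral mutants but not in axon region mutants.

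Set against the background, the region comparisons called 0 of the 10 members by edgeR within either genotype. In controls, dorsal against ventral, 0.0% of genes were called, 6.74% had an unadjusted p under 0.05 (1 member, Lamb1) and 2.71% had groups that did not overlap (2 members, Lamb1 and Lama4). Dorsal against axon region in controls called 0.0692% of genes, with 10.5% under the unadjusted threshold (1 member, Lamc1) and 4.41% separate (0 members). Ventral against axon region in controls called 0.0316%, with 9.19% and 3.8% (0 members in each). A share of 1 or 2 in 10 is too coarse to be set apart from these percentages.

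In mutants dorsal against ventral called 0.0% of genes, with 12.4% at an unadjusted p under 0.05 (3 members, Lama2, Lamb1 and Nid1) and 1.53% separate (0 members). Dorsal against axon region called 0.545%, with 23.5% (1 member, Lama2) and 4.18% (0 members), and ventral against axon region called 0.443%, with 21.8% (1 member, Nid1) and 3.43% (1 member, Nid1). Except for dorsal against ventral, the members were thus at or below the share of all genes that passed the unadjusted threshold. The 3 comparisons within a genotype share libraries.

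Over both genotypes with the embryo as a block, edgeR called 0 members dorsal against ventral (0.049% of genes), dorsal against axon region (1.58%) and ventral against axon region (1.04%). Unadjusted p under 0.05 was met by 4 members dorsal against ventral (Lamb1, Nid1, Lama2 and Nid2, all higher in the dorsal stalk, where 5.92% of genes met it), 0 dorsal against axon region (15.7%) and 1 ventral against axon region (Nid1, 13.7%). The same order in all 9 embryos was shown by 0 members between dorsal and axon pieces (2.28% of genes) and 0 between ventral and axon pieces (2.18%). DESeq2 called 4 members dorsal against ventral, Nid1, Nid2, Lama2 and Lama4, and 2 in each of the other pairs. Of all 16330 genes it called 1058 dorsal against ventral, 3695 dorsal against axon region and 3444 ventral against axon region.

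Whether the genotype difference itself varied by region was asked with an interaction term. No member was called for dorsal against ventral (0.00612% of genes; unadjusted 0 members, 7.39%), dorsal against axon region (0.0245%; 0 members, 11.7%) or ventral against axon region (0.00612%; 1 member, Nid1, 10.4%). DESeq2 called Nid1 in the last of these, among 1272 of 14169 genes.

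The partners of laminin in the sheet and on the cell were followed as lists drawn up by function. Of 19 other basement membrane genes tested in the dorsal stalk 0 passed the edgeR criterion and 3 fell under an unadjusted 0.05, all lower in mutants (5.35% of all genes met the latter), with a list median of -0.97 on the log2 scale against -0.04 over all genes. Sparc, a collagen-binding matricellular protein, had 1910 ± 230.0 CPM (SD, n = 4) in controls and 970 ± 316 CPM (n = 5) in mutants (-0.97 ± 0.26, SE, edgeR adjusted p = 0.794), and its groups did not overlap, as for 2.92% of genes. Col18a1, the basement membrane collagen that gives rise to endostatin, had 357 ± 75.6 and 155 ± 61.9 CPM, and Col4a2, a chain of the collagen IV network that nidogen ties to laminin, 116 ± 25.1 and 62.6 ± 71.7 CPM (both edgeR adjusted p = 0.918). The groups of Col18a1 did not overlap either, and those of Col4a2 did. In the ventral stalk 1 of 18 reached that threshold (3.19% of all genes), Col4a1 (118 ± 51.3 against 49.1 ± 18.2 CPM in mutants, edgeR adjusted p = 0.999). In the axon region 1 of 16 did (3.55% of all genes), Sparc again, but higher in mutants at 2514 ± 692 against 1317 ± 227 CPM (edgeR adjusted p = 0.880).

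Of 19 laminin receptor genes tested, 0 passed the edgeR criterion and 0 reached an unadjusted p of 0.05 in any of the 3 regions, with medians of -0.36, -0.14 and 0.30 in the dorsal stalk, ventral stalk and axon region. Itgb1, the beta subunit common to the laminin-binding integrins, had 245 ± 155 CPM (SD, n = 4) in dorsal controls and 134 ± 28.0 CPM (n = 5) in dorsal mutants. Of the enzymes that build the laminin-binding sugar on dystroglycan, 0 of 11 dorsal, 0 of 11 ventral and 0 of 10 axon region genes had an unadjusted p under 0.05. Of those that make heparan sulphate, the chain perlecan carries, 0 of 15, 0 of 14 and 1 of 15 did, the last being Xylt2 at 5.06 ± 5.47 CPM in controls and 0.0853 ± 0.191 CPM in mutants (edgeR adjusted p = 0.880).

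Across the 27 libraries the members kept company with different cell type markers. Nid1 had Pearson correlations of 0.62 with the mesenchyme and meninges sum, 0.59 with the red cell sum, 0.53 with the endothelial sum and -0.68 with the retinal progenitor sum. Lama4 had 0.63 with endothelial and 0.61 with mesenchyme markers, Lama2 0.48 and 0.42, and Lamb1 0.55 with mural markers. Lama1 stood on the other side, at -0.38 with mesenchyme and -0.40 with red cell markers. These are descriptions over libraries that share embryos, regions and depth, with no test.

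**Figure D5:**
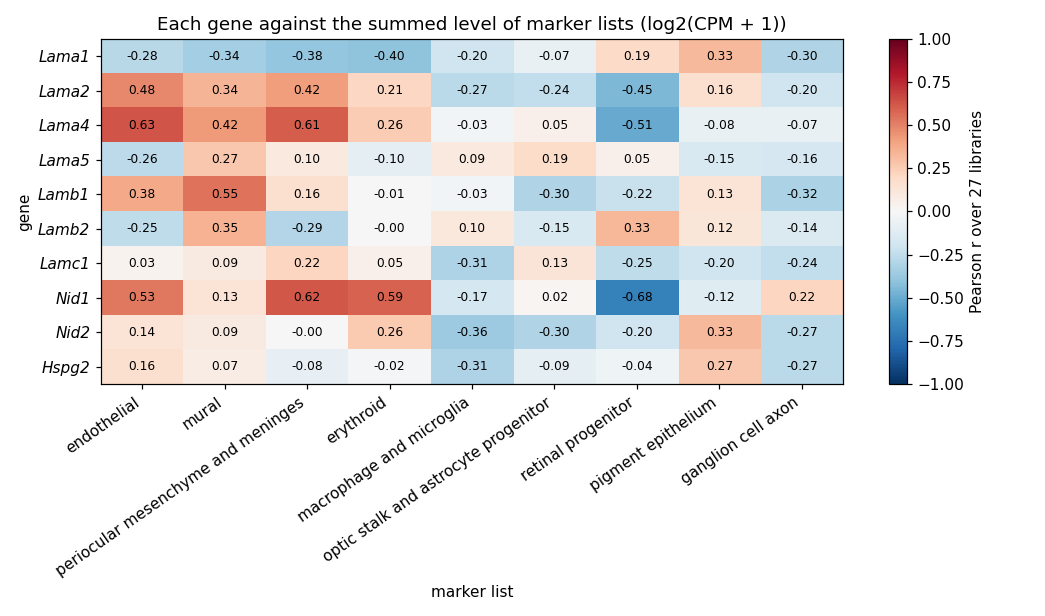
Pearson correlation over 27 libraries between the level of each gene (rows) and the summed level of each marker list (columns), both as log2(CPM + 1); red is positive and blue negative. Nid1 and Lama4 are the reddest in the endothelial and mesenchyme columns, and Lama1 is blue in both.

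Among themselves the members were loosely related. The highest correlations were 0.58 between Lama4 and Nid1, 0.51 between Lama2 and Lama4 and 0.49 between Lama4 and Lamb1, and the lowest was -0.44 between Lama1 and Lama2. The genes most like Nid1 over all 27 libraries were Crym (0.82), Lgals1 (0.79) and Col1a1 (0.78). Lamb1 was most like Stk39 (0.82), Lama4 most like Eln (0.70), which encodes elastin, Lama2 most like Gimap6 (0.76), and Lama5 most like Chl1 (0.81). These were the highest of all genes passing the count filter, a choice that favours high values, and they say nothing of shared control.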

How the data were processed

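Geo-seq libraries of 27 laser-captured pieces were compared as 6 groups of 4 control or 5 mutant libraries, grouped by their labels. The authors aligned single-end reads to mm10 with STAR through Seq2Science and counted reads per gene with HTSeq, and the raw counts were analysed as deposited. Salmon is also named in the submitters' processing notes, while the versions of the tools, the gene annotation and the handling of strand were not given in the sources used here. Gene symbols and positions came from GENCODE M21, which matched 55227 of 55487 gene identifiers. The members and lists were chosen with earlier results of these data known.

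A gene entered the fits if 3 or more libraries had over 10 reads for it, which 16330 genes did, all 10 members included, and each comparison left out genes without a read in its libraries. Counts were tested with edgeR 4.0.16 in R 4.3.3 (quasi-likelihood test, TMM scaling), with batch A or B as a covariate in the genotype comparisons and in the interaction model over 27 libraries, and without a covariate between regions of 1 genotype. Calls needed a p below 0.05 after Benjamini-Hochberg adjustment together with a log2 fold change beyond 0.58 in either direction. Batch A held 1 control and 3 mutant embryos, and batch B held 3 and 2. Levels are CPM on the total of all genes, and log2 values use a pseudocount of 1. Exact permutation tests and exact sign flips over 9 embryos were two-sided, and their adjusted p was taken over all genes. The sign flips, the region permutations and the fits over both genotypes were added after the data were seen. The members were named in full, and other genes as the lowest p of each list or the highest correlation with a member.

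Libraries of 1 number and genotype were taken as 1 embryo, following the study's methods. The deviations from the group means correlated between pieces of 1 embryo at a median of 0.0369 (27 pairs, -0.0195 to 0.115), against -0.0111 between embryos (96 pairs). No 2 libraries held the same values. Alternatives were DESeq2 1.42.0 (with its size factors), limma 3.58.1 voom, another scaling, no count filter, a newer edgeR method, a replicate block, a pseudocount of 0.1 and leaving out each library. The edgeR test was tested on simulated data. Promoter sequences were from RefSeq (GRCm38.p6), which held 6 of the 10 members.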

Additional observations from a re-analysis of the deposited data

Results flagged for a closer look

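In 13 of the 60 sets of values of 1 gene in 1 group, a single library stood apart from the rest by Dixon's criterion, where chance gives about 1 in 20 sets. The library was the high one in 10 sets and the low one in 3.

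Lama2 gave 4 of these, in every group outside the dorsal stalk: 28.0 CPM in ventral control replicate 3, 0.673 CPM in ventral mutant replicate 5, 46.6 CPM in axon region control replicate 1 and 0.171 CPM in axon region mutant replicate 2, with the other libraries of each group at or below 0.534 CPM. Ventral control replicate 3 also stood above its group for Lama4 (11.9 CPM, the others at most 0.124) and Nid2 (15.8 CPM, the others at most 0.307). Further high libraries were dorsal mutant replicate 2 for Lama5 (17.7 CPM), axon region mutant replicate 4 for Lama5 (4.32 CPM), ventral mutant replicate 1 for Nid1 (3.50 CPM, the others at most 0.367) and axon region control replicate 2 for Nid2 (14.3 CPM). The low ones were dorsal mutant replicate 4 for Lama1 (0 CPM, the others at least 12.9), ventral mutant replicate 2 for Lamb1 (20.8 CPM, the others 61.2 to 69.6) and dorsal control replicate 3 for Hspg2 (0 CPM, the others at least 22.1). Most sets hold 1 library with reads among libraries at or near 0.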

How the results depend on the processing

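The 14 fold changes of members with an unadjusted p under 0.05 in the report's fits kept their sign under every alternative run, but 13 of the 30 genotype fold changes took the opposite sign under at least 1 of 16, and 17 did not. The largest such turns were dorsal Lama1 (-0.10, and 1.92 without control replicate 4), dorsal Nid1 (-0.88, and 1.09 without mutant replicate 5), ventral Lama1 (-0.55, and 1.87 without control replicate 4), ventral Nid2 (2.42, and -1.85 without mutant replicate 5) and ventral Lama4 (1.20, and -1.14 without mutant replicate 5). Axon region Lama4 went from -9.81 to 0.03 without the batch term. Recomputed under the alternatives, the counts of members called stayed at 0 in 214 cases and did not in 14. DESeq2 called 2 members in the axon region between genotypes (Lama1 and Lama4), and over both genotypes 4 for dorsal against ventral (Nid1, Nid2, Lama2 and Lama4), 2 for dorsal against axon region (Lama2 and Nid2) and 2 for ventral against axon region (Nid1 and Lama4). Over all genes it called 1233 of 11880, 1058 of 16330, 3695 of 16330 and 3444 of 16330 in these comparisons, in that order. In mutants it called 1 member in each region pair, Lama2 for dorsal against axon region and Nid1 in the others, and 1 (Nid1) for the interaction of ventral against axon region, which also gave 1 (Nid1) with no count filter. Over all genes DESeq2 called in mutants 460 of 14015 dorsal against ventral, 1571 of 13113 dorsal against axon region and 1352 of 13049 ventral against axon region. For that interaction it called 1272 of 14169. Limma voom called 1 member (Nid1) for dorsal against axon region over both genotypes and 1 (Nid1) for ventral against axon region in mutants. The newer edgeR method called 1 (Nid1) for ventral against axon region in mutants and over both genotypes. Leaving out single libraries gave 0 to 1 for ventral against axon region in mutants, the 1 being Nid1 without ventral replicate 1. With the embryo as a replicate block 0 members were called within either genotype, Nid1 at -9.56 (edgeR adjusted p = 0.439) for ventral against axon region in mutants, and the block changed no other call.

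Of the recomputed values of those 14, 201 kept their side of the threshold and 13 passed it. All 60 group means moved by less than 1 SD under TMM scaling. With the longest transcript as length 6 of 60 levels per kb moved by more. With a pseudocount of 0.1 the permutation p of Lamb2 in the dorsal stalk was 0.0397 and the other 29 stayed on their side. The causes were not tested. Fewer than 3 reads, 0.0883 to 0.275 CPM, could not be told from none, and Lama2 had 0 reads in 14 and Lama4 in 11 of the 27 libraries.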
